A study of Mus musculus with 28 samples.

Results

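The spleen of mice lacking PPARg in part of their cells was compared with that of mice keeping it, in the absence of lipopolysaccharide (LPS, a component of bacterial membranes that triggers inflammation). All arrays without LPS from the experiment that held both genotypes were used: 4 null and 4 wild-type arrays, 8 of the 28 arrays in the series. Null mice were PPAR g flfl; MMTV-Cre+ and wild-type mice were PPAR g flfl; MMTV-Cre-, so both genotypes carried floxed Pparg alleles and the controls lacked the recombinase, not the flox sites. Of the arrays of each genotype, 2 came from mice on a control diet and 2 from mice whose diet was supplemented with ABA (abscisic acid, known as a hormone of plants and also active on mammalian cells). The Cre recombinase is driven by the MMTV promoter, which is active in epithelial and haematopoietic cells and not in every cell of a spleen, so cells outside its reach keep Pparg. The source is labelled spleen and the growth text speaks of splenocytes, while RNA came from homogenised tissue. They give neither age nor sex, and they do not say that replicates were separate animals. A p-value here therefore measures the spread between these arrays alone, which within the control diet pairs may be technical. Within each ABA pair the replicates differed in Xist and in Y-linked genes (values below), so those replicates are not repeats of the same sample.

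PPARg is a nuclear receptor that forms heterodimers with RXR proteins and binds fatty acids and their derivatives. It switches on genes of fatty acid uptake and storage, and in macrophages it is known for dampening inflammatory genes and for a part in alternative activation. The spleen filters blood: macrophages of its red pulp destroy old red cells and recycle their iron, its white pulp holds B and T cells, and in mice it also makes red blood cells.

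Values are log2 expression per gene from a 1-colour mouse array, as deposited, for 18194 genes. A gene was tested if it lay above the 40th percentile of its array on at least 2 arrays, which left 12941. The lowest value, 2.24, is shared by 35.9% to 37.3% of the probe sets of an array and stands for signal not told apart from background. Spleen markers were high on every array: the mean of 15 B cell genes was 8.79 to 10.45 and that of 19 genes of red pulp macrophages and iron recycling was 10.52 to 11.66. Pairs of arrays correlated at 0.955 to 0.995 over all probe sets.

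Several arrays differed in content that the genotype labels do not describe. Cpa1, a digestive enzyme made in the pancreas, was at the lowest value on 6 arrays and at 9.67 and 13.50 on the null arrays control diet replicate 2 and ABA diet replicate 2. Adipoq, the fat cell hormone adiponectin, was at 6.64 on the wild-type array ABA diet replicate 1 and between 2.36 and 2.49 on the other 7. Xist, the transcript of the inactive X chromosome, was at 13.05 on that wild-type array and at 13.22 on the null array ABA diet replicate 2, and at 2.24 on the other 6, so each genotype held 1 array of high Xist. The Y-linked genes Eif2s3y and Uty were at 2.24 on these same arrays, and at 8.41 to 9.75 and 5.63 to 7.14 on the other 6. The mean of 19 genes of red cell precursors and heme synthesis ran from 7.74 on the null array control diet replicate 1 to 12.48 on the wild-type array ABA diet replicate 1. Taken one at a time, genotype carried 8.03% of the variance over all tested genes, diet 15.9%, high Cpa1 18.3%, high Xist 29.6% and this erythroid mean 46.3%. These shares overlap, both arrays of high Xist being on the ABA diet, and do not add up. The erythroid mean, high Cpa1 and high Xist were read from the expression values themselves, unlike genotype and diet. Their shares are therefore not on a par with those of the labels. With so few arrays a term unrelated to expression also takes a share, and its size was not computed. The part of these differences in the results below was not tested beyond the values given beside them.

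Pparg itself was low on all 8 arrays and did not separate the genotypes. Its level was 2.51 and 2.69 in wild-type mice on the control diet, 2.45 and 3.56 in wild-type mice on ABA, 3.30 and 2.50 in the control diet null mice, and 3.31 and 2.45 in the null mice given ABA. Each genotype thus held arrays near the lowest value and arrays above 3, and 5 of the 8 values lay within 0.5 log2 units of the lowest. The difference, null minus wild-type with diet as a term, was 0.09 ± 0.35 (SE, n = 4 arrays each), with a 95% interval of -0.78 to 0.96 (limma, adjusted p = 1). The sources used here do not place this probe set inside or outside the deleted part of Pparg, and its level therefore does not check the genotype labels. The 3 arrays with the highest Pparg, at 3.56, 3.31 and 3.30, were the 3 with the lowest erythroid mean, at 9.79, 10.97 and 7.74.

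Genes that PPARg is known to act on in fat cells and macrophages did not differ beyond the spread between arrays. Of 23 tested genes of lipid handling 0 passed (limma, Benjamini-Hochberg adjusted p under 0.05), 16 were higher and 7 lower in null mice, and their median difference was 0.15, beside 0.03 over all tested genes. Of all tested genes 60.5% were higher in null mice, the share to set beside the counts of every list below. No member reached an unadjusted p of 0.05. The list mean was 8.44 ± 0.09 in wild-type and 8.54 ± 0.35 in null arrays (SD, n = 4 each). Cd36, a fatty acid transporter and scavenger receptor, was at 11.30, 10.75, 10.96 and 11.45 on the wild-type arrays. On the null arrays it was at 12.24, 10.76, 11.45 and 11.06, so the groups overlapped, with null control diet replicate 1 apart from the rest. Fabp4, which carries fatty acids in fat cells and macrophages, was at 5.23, 6.89, 9.01 and 7.29 on wild-type arrays and between 6.81 and 7.02 on all 4 null arrays. Its highest value came from the wild-type array with high Adipoq. Pdk4, a kinase that spares glucose when fatty acids are burned, was at 8.72, 8.84, 7.78 and 8.34 in wild-type mice and at 10.62, 6.78, 9.63 and 8.96 in null mice, which thus held both the highest and the lowest value. Its difference was 0.58 ± 0.86.

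No other gene of the list passed either. Lpl, which frees fatty acids from blood lipoproteins, differed by 0.11 ± 0.34, and Angptl4, which inhibits it, by 0.43 ± 0.40. The cholesterol exporters Abca1 and Abcg1 differed by 0.40 ± 0.40 and 0.32 ± 0.34. Plin2, which coats lipid droplets, differed by 0.28 ± 0.31. The smallest unadjusted p in the list was that of Fabp3, a fatty acid carrier of muscle, at 0.06, with a difference of -0.17 ± 0.07. The lean of the list towards null mice was not kept without null control diet replicate 1, the array with the fewest erythroid transcripts. There 10 of the 23 genes were higher and 13 lower, with a median of -0.01. With all 8 arrays kept, the median was 0.05 with quantile normalisation (15 higher, 8 lower). It was also 0.05 with the mean of all probe sets of a gene (13 higher, 10 lower).

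**Figure D1:**
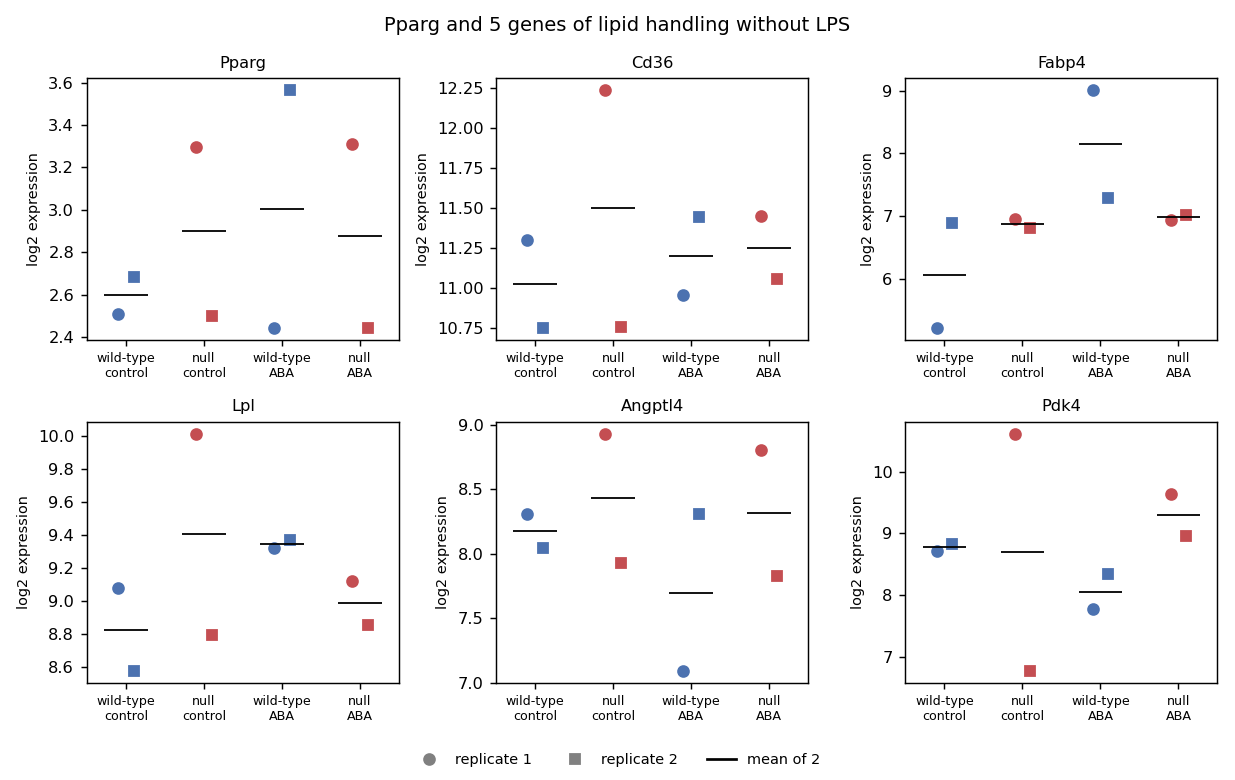
Log2 expression of Pparg and 5 genes of lipid handling on each of the 8 arrays, in the order wild-type control diet, null control diet, wild-type ABA and null ABA; circles are replicate 1, squares replicate 2, and the bar is their mean. In all 6 genes the genotypes overlap, and Pparg lies between 2.45 and 3.56.

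Partner and related receptors did not separate the genotypes. Among 20 nuclear receptors and cofactors 0 passed, 15 were higher and 5 lower, and the median was 0.08. There were 11 higher and 9 lower without null control diet replicate 1 or with quantile normalisation, and 10 of each with median centring. Without the 2 null arrays of high Cpa1 there were 18 higher and 2 lower, with a median of 0.33. The lean thus depended on the arrays kept and on the scaling. Rxra, a partner of PPARg on DNA, was at 8.41, 7.48, 6.87 and 7.60 in wild-type mice and at 7.85, 7.71, 7.98 and 7.23 in null mice, with a difference of 0.10 ± 0.31. The related receptor Ppard differed by -0.08 ± 0.21 and the oxysterol receptor Nr1h3 (LXRa) by -0.19 ± 0.33. Among 15 genes of the ABA receptor and of cAMP signalling 0 passed, 12 were higher and 3 lower, and the median was 0.15. Without null control diet replicate 1 there were 8 and 7, with a median of 0.05. Without the 2 null arrays of high Cpa1 there were 11 and 4, with a median of 0.47. Lancl2, a membrane protein described as a mammalian ABA receptor, was at 7.21, 7.92, 9.35 and 7.27 in wild-type mice and at 7.60, 8.55, 7.49 and 8.39 in null mice, a difference of 0.07 ± 0.56.

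Over all 12941 genes, none passed the threshold for genotype (limma with diet as a term; 0% of genes called in either direction, smallest adjusted p = 1). An unadjusted p under 0.05 was reached by 115 genes, 56 higher (0.433%) and 59 lower (0.456%) in null mice, where 647 would be below that value if p-values were uniform. The median absolute difference was 0.13 log2 units, against a median SD of 0.38 between arrays of a genotype. The 95% interval of a gene had a median half-width of 0.60. It lay inside -1 to 1, that is, within a 2-fold change either way, for 8578 genes (66.3%) and inside -0.5 to 0.5 for 3894 (30.1%). For the other genes a 2-fold difference lies within the interval, so these arrays do not bound it. In the values as deposited 60.5% of genes were higher in null mice and 39.5% lower. With quantile normalisation 51.4% were higher, and with each array centred on its median 42.6% were, so the balance of directions depends on the scaling.

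**Figure D2:**
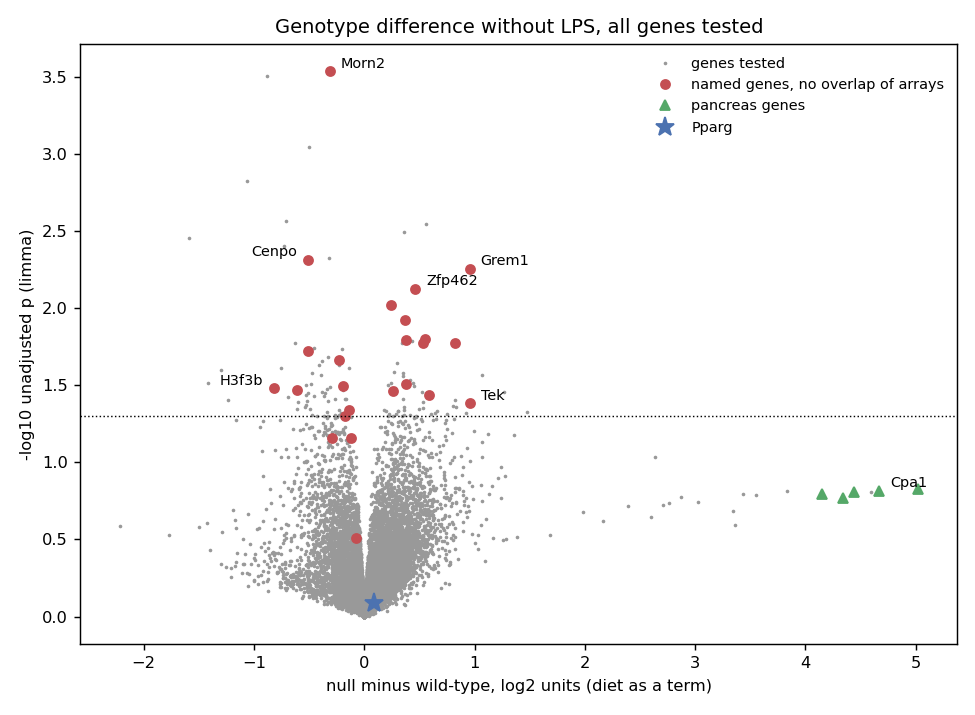
Each tested gene by its null minus wild-type difference (log2 units, diet as a term) and its -log10 unadjusted p from limma; the dotted line is the 0.05 level, red points are the named genes whose arrays did not overlap, green triangles are 5 pancreas genes and the star is Pparg. The 5 pancreas genes lie above 4 log2 units and below that line.

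Arrays of the same genotype and diet differed from each other as much as arrays of different genotype. The share of genes more than 1 log2 unit apart was 10.6% between the 2 wild-type arrays on the control diet and 21.3% between those on ABA. It was 25.2% between the null arrays on the control diet and 9.27% between those on ABA. For the 8 pairs of a null and a wild-type array on the same diet the share ran from 2.62% to 22.5%, with a median of 11.8%. The lowest of all pairs, 2.62%, joined wild-type ABA replicate 2 and null ABA replicate 1, both low in erythroid transcripts. Wild-type ABA replicate 1 and null ABA replicate 2, both high in Xist, differed in 4.13% of genes.

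**Figure D3:**
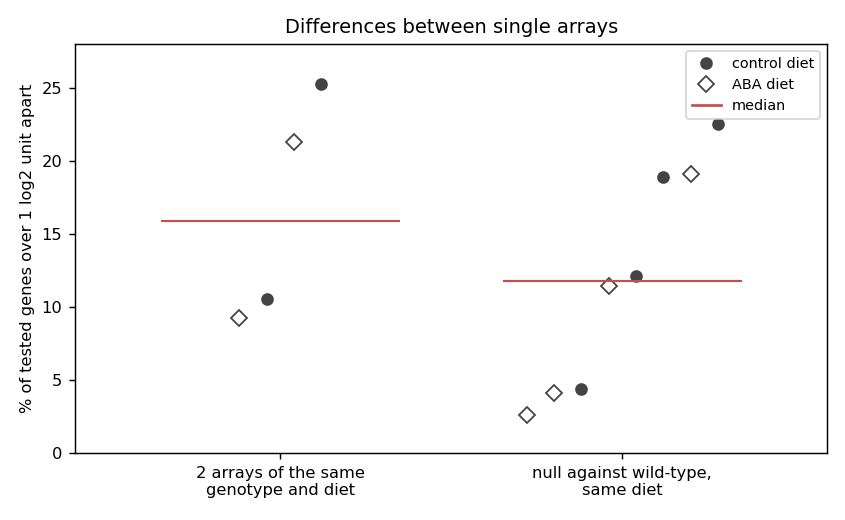
Percent of the 12941 tested genes that lie more than 1 log2 unit apart between 2 arrays, for the 4 pairs of the same genotype and diet and the 8 pairs of a null and a wild-type array on the same diet; filled points are the control diet, open diamonds ABA, and the line is the median. The pairs of unlike genotype are not further apart (median 11.8%) than the pairs of like genotype (median 15.9%).

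In 27 genes (0.209%) all 4 null arrays lay above all 4 wild-type arrays, and in 15 genes (0.116%) all lay below. The 12 in each direction with the smallest unadjusted p and a gene name other than a clone's are described here. They were chosen for this separation, and none passed the test (adjusted p = 1 for each), so their values are a description.

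Among the 12 that were higher in null mice were genes of signalling at the cell surface and in the matrix. Grem1, a secreted antagonist of bone morphogenetic proteins, was at 3.45, 3.64, 3.41 and 3.45 on the wild-type arrays. On the null arrays it was at 5.06 and 4.74 with the control diet and at 4.27 and 3.70 with ABA. The groups do not overlap, the ABA arrays come closest, and the difference was 0.95 ± 0.22 (SE). Serpinf1, a secreted factor known for blocking vessel growth, was between 2.80 and 2.83 on all wild-type arrays and at 4.10, 4.28, 3.33 and 2.87 on null arrays. It differed by 0.82 ± 0.25, and the lowest null array lay just above wild-type. Tek, the angiopoietin receptor TIE2 of endothelium, was at 4.79, 4.38, 3.58 and 4.74 in wild-type mice and at 6.24, 5.01, 5.14 and 4.94 in null mice, a difference of 0.96 ± 0.37. Its highest value came from the null array with the lowest erythroid mean, and the other 3 null arrays lay just above the highest wild-type array.

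The other 9 higher genes differed less. Ror1, a receptor for Wnt5a, was higher by 0.55 ± 0.16, and Gpc4, a cell surface proteoglycan, by 0.38 ± 0.11. Sema4c, a semaphorin, was higher by 0.53 ± 0.16 and Slc30a1, which exports zinc from cells, by 0.58 ± 0.22. Slc30a1 was at 8.39 to 8.86 in wild-type and 8.87 to 9.74 in null arrays, so that the nearest arrays almost touched. Zfp462, a zinc finger protein, was at 4.58 to 5.09 in wild-type and in the narrow range of 5.12 to 5.25 in null arrays, a difference of 0.46 ± 0.12. Tmtc4, a glycosyltransferase of the endoplasmic reticulum, was higher by 0.24 ± 0.06, Fam169b by 0.37 ± 0.10, Serac1, which acts in phospholipid exchange, by 0.38 ± 0.13 and Mib2, a ubiquitin ligase of the Notch pathway, by 0.26 ± 0.09.

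The 12 lower genes had small differences, and 4 of them lay close to background. Morn2 had the smallest p of all genes (unadjusted p = 0.000289, limma). It was at 3.65, 3.67, 3.59 and 3.54 in wild-type mice and at 3.27, 3.37, 3.27 and 3.27 in null mice, lower by only 0.31 ± 0.04, and 3 of its null values are the same. Cenpo, a centromere protein needed for chromosome segregation, was at 5.24, 5.24, 5.32 and 4.94 in wild-type and at 4.77, 4.61, 4.49 and 4.82 in null arrays, a difference of -0.51 ± 0.12. Zxdc, a zinc finger coactivator of MHC class II genes, differed by -0.51 ± 0.16, Polr3e, a subunit of RNA polymerase III, by -0.23 ± 0.07 and Taf11, a subunit of the general factor TFIID, by -0.61 ± 0.22. Taf11 came close to overlap, with its lowest wild-type array at 5.80 and its highest null array at 5.79.

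H3f3b, which encodes histone H3.3, differed by -0.82 ± 0.29, yet its probe set read within 0.5 log2 units of the lowest value on 4 arrays. Saa1, an acute-phase protein, Scel, Rnd2 and Carmil2 differed by -0.19, -0.14, -0.12 and -0.07, with 7 or 8 of their 8 values that close to the lowest. Mrpl36, of the mitochondrial ribosome, differed by -0.18 ± 0.07, and Srrm4, a splicing factor known from neurons, by -0.29 ± 0.13. For 7 of the 24 genes other probe sets naming the gene alone were tested, and none of these 8 reached an unadjusted p of 0.05. Those of Zfp462, Polr3e and Zxdc had the opposite sign, at -0.19, 0.20 and 0.06, and the other 2 of Cenpo were at -0.08 and 0.0044.

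**Figure D4:**
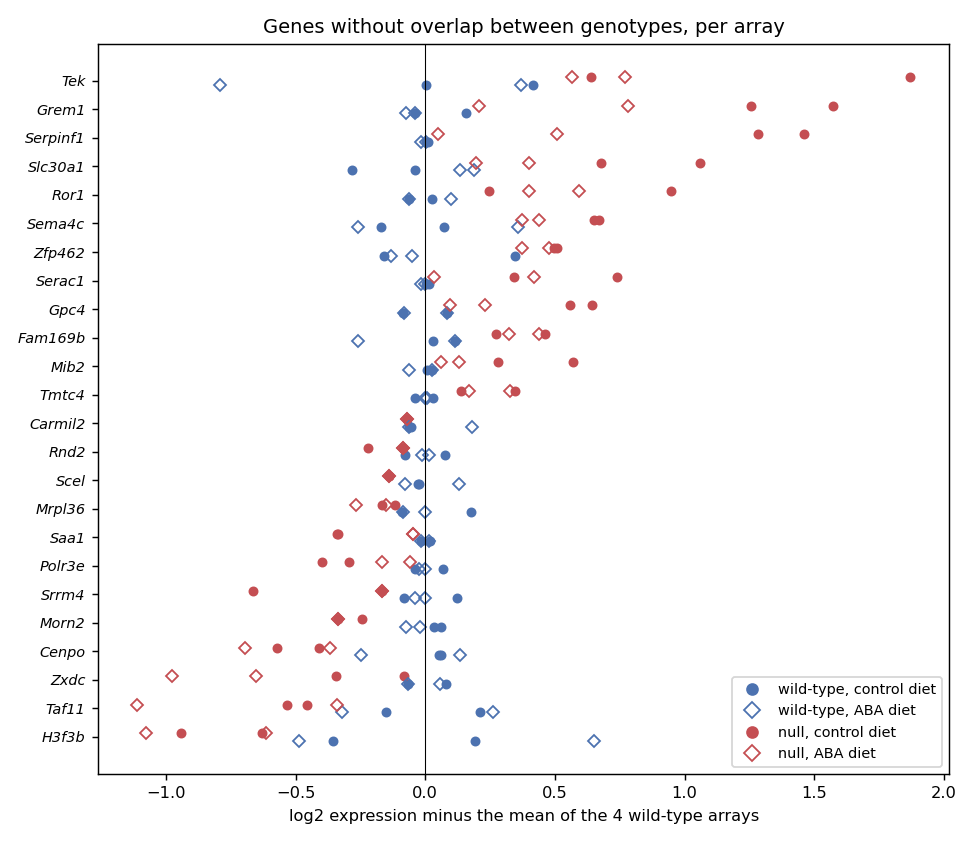
Log2 expression minus the mean of the 4 wild-type arrays for the 24 genes named for not overlapping, with blue for wild-type and red for null arrays, filled circles for the control diet and open diamonds for ABA. Tek, Grem1 and Serpinf1 reach the furthest above wild-type, and Taf11, H3f3b and Zxdc the furthest below.

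The 8 arrays with LPS from the same experiment are other arrays of the same genotypes. In them 7 of these 24 genes had the sign they had without LPS, 3 of the 12 higher and 4 of the 12 lower, beside 39.3% of all tested genes. Grem1 differed there by 0.00, Serpinf1 by -0.19, Tek by -0.37, Cenpo by 0.55 and Morn2 by 0.04. Those with the same sign included Gpc4, at 0.30, and H3f3b, at -0.21.

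Taken by diet, the genotypes differed in 1 gene on the control diet (0.00773% of those tested) and in none on ABA (limma on 4 group means, with 325 and 96 genes at an unadjusted p under 0.05). The gene was H1f7, a linker histone of maturing sperm. On that diet it was at 3.82 and 3.77 in wild-type mice and at 2.24 and 2.35 in null mice, a difference of -1.50 ± 0.06 (SE, n = 2 arrays each; limma, adjusted p = 0.0473). On ABA it was at 4.45 and 4.42 in wild-type and at 3.82 and 3.82 in null mice, a difference of -0.62 ± 0.06 that did not pass. Averaged over the diets in this fit of group means, H1f7 passed for genotype, at -1.06 ± 0.04 (limma, adjusted p = 0.0475). In the main fit, with diet as a term, it did not pass. Both null values on the control diet are near the lowest, and 3 of the 8 arrays hold the same value, 3.82. With quantile normalisation no gene passed on the control diet, and with all 16 arrays of the experiment in the fit 12 did, H1f7 among them. Leaving out wild-type control diet replicate 2 replaced H1f7 with 2 other genes, leaving out null control diet replicate 2 gave 114 genes, and leaving out any 1 of the other 6 arrays gave none. With null control diet replicate 2 left out, the null mice on that diet are represented by replicate 1 alone, whose spread is then taken from the other groups. On ABA, leaving out wild-type replicate 2 or null replicate 1 called 1 gene each, Adipoq (-4.22) and Spink1, a trypsin inhibitor of the pancreas (5.32), where the array left alone in its group was the one high in Adipoq or in Cpa1.

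The effect of genotype was not shown to differ between the diets. No gene passed for the interaction of diet and genotype (limma, 221 at an unadjusted p under 0.05). Without null control diet replicate 2 there were 9. The genotype difference had the same sign on both diets in 46.1% of genes. Of the genes just named, Grem1 differed by 1.36 on the control diet and 0.55 on ABA, Serpinf1 by 1.36 and 0.29, and Tek by 1.05 and 0.88.

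Markers of red cell production gave the widest spread of the spleen cell lists, and the spread lay within the genotypes. Of 19 tested erythroid genes 0 passed, 18 were lower and 1 higher in null mice, with a median of -0.72. The list mean was 11.57, 11.73, 12.48 and 9.79 on wild-type arrays and 7.74, 12.32, 10.97 and 11.91 on null arrays, so the groups overlapped. Klf1, the master regulator of red cell genes, was at 10.95, 11.83, 12.05 and 8.78 in wild-type and at 5.24, 12.18, 10.87 and 11.32 in null mice. Alas2, the first enzyme of heme synthesis in red cells, was at 14.69, 12.81, 14.04 and 12.09 in wild-type and at 9.76, 13.96, 13.31 and 13.45 in null mice, a difference of -0.78 ± 1.14. In both genes 1 null array is far below all others, and the other 3 lie within the wild-type range or, for 1 of them in Klf1, just above it. The direction rests on that array: without null control diet replicate 1 all 19 genes were higher in null mice, with a median of 0.39. Without the 2 null arrays of high Cpa1, which keeps that array, all 19 were lower, with a median of -2.09. Without the array of high Adipoq as well the median was -1.83, again with all 19 lower. In a bulk sample fewer cells of a type and less RNA per cell cannot be told apart.

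Genes of cell division followed the same arrays. Of 27 genes of the cell cycle and DNA replication 0 passed and all 27 were lower in null mice, with a median of -0.40, while without null control diet replicate 1 there were 23 higher and 4 lower, with a median of 0.20. Without the 2 null arrays of high Cpa1 all 27 were lower, with a median of -1.28. The list mean was 8.78, 9.61, 10.54 and 8.13 in wild-type and 7.17, 9.90, 8.67 and 9.65 in null mice. Cdc6, which loads the replicative helicase, was at 8.72, 9.90, 10.74 and 7.99 in wild-type and at 5.60, 9.87, 8.76 and 9.67 in null mice, and differed by -0.86 ± 1.14. Tyms, which makes thymidylate, had the smallest p of the list and differed by -0.90 ± 0.62.

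Macrophages, in which PPARg is known to act, gave no difference that passed. Of 19 genes of red pulp macrophages and iron recycling 14 were higher and 5 lower, with a median of 0.14 and list means of 11.06 ± 0.51 in wild-type and 11.18 ± 0.36 in null mice (SD, n = 4 each). Spic, the transcription factor that red pulp macrophages need, was at 11.13, 9.92, 9.76 and 11.11 in wild-type and at 11.60, 9.98, 11.23 and 10.31 in null mice. Hmox1, which breaks down heme, differed by 0.54 ± 0.59 and the iron exporter Slc40a1 by 0.34 ± 0.40. Of 6 marginal zone macrophage genes 4 were higher and 2 lower, with a median of 0.32. Marco, a scavenger receptor of these cells, was at 11.80, 10.55, 10.38 and 11.73 in wild-type and at 12.57, 11.92, 11.85 and 10.90 in null mice, so 3 of 4 null arrays were above every wild-type array and the fourth was not. It differed by 0.70 ± 0.48. Of 12 genes of alternative activation, a programme in which PPARg is known to take part, 8 were higher and 4 lower, with a median of 0.19. Without null control diet replicate 1 there were 6 and 6. Without the 2 null arrays of high Cpa1 there were 11 and 1, with a median of 0.60. Clec10a, a lectin of these cells, had the smallest p of that list, 0.11.

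Inflammatory genes without the LPS stimulus overlapped between the genotypes. Of 20 cytokine and chemokine genes 0 passed, 12 were higher and 8 lower, and the median was 0.06. Tnf was at 2.74, 2.26, 2.24 and 2.30 in wild-type and at 2.98, 2.74, 2.46 and 2.32 in null mice, all close to the lowest value, and differed by 0.24 ± 0.13. Nfkbia and Tnfaip3, which restrain NF-kB, differed by 0.48 ± 0.40 and 0.58 ± 0.50. Of 16 genes induced by interferon-gamma 15 were higher, with a median of 0.25, which was 0.58 on the control diet and -0.01 on ABA. Leaving out null control diet replicate 1 left 11 higher and 5 lower, with a median of 0.07. Leaving out the 2 null arrays of high Cpa1 gave 15 higher and 1 lower, with a median of 0.57. Tap1, which feeds peptides to MHC class I, had the smallest p of them, 0.06, at 7.27, 7.75, 5.72 and 6.47 in wild-type and 8.09, 8.13, 6.47 and 6.39 in null mice, with the control diet arrays above the ABA arrays in each genotype. Of 21 genes stimulated by type I interferon 13 were higher and 8 lower. Their median of 0.13 turned to -0.13 without null control diet replicate 1 and was 0.17 without the 2 null arrays of high Cpa1. Ifit3 differed by 0.87 ± 0.43.

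Lymphocyte markers did not separate the genotypes. Of 15 B cell genes 13 were higher and 2 lower, with a median of 0.14 and list means of 9.81 ± 0.69 in wild-type and 9.97 ± 0.54 in null mice; without null control diet replicate 1 9 were higher and 6 lower, with a median of 0.02. Ms4a1, which encodes CD20, was at 12.88, 13.14, 11.98 and 13.53 in wild-type and at 13.88, 13.11, 13.42 and 12.54 in null mice, and the array of each genotype with high Xist was the lowest. Of 17 T cell genes 12 were higher and 5 lower, with a median of 0.25 that was -0.01 without null control diet replicate 1. Zap70, the kinase next to the T cell receptor, was 1 of only 2 members of any list with an unadjusted p under 0.05, the other being Tek. It was at 6.57, 6.82, 6.36 and 6.61 in wild-type and at 7.10, 6.94, 6.76 and 6.66 in null mice, which overlap, and differed by 0.27 ± 0.09 (limma, adjusted p = 1). Medians were 0.08 for 11 plasma cell genes, 0.03 for 15 genes of NK and cytotoxic cells, 0.14 for 12 dendritic cell genes and -0.09 for 15 neutrophil genes. Leaving out null control diet replicate 1 moved them to -0.11 for plasma cells, -0.0025 for NK and cytotoxic cells and -0.07 for dendritic cells. That of neutrophils was -0.09 again. Without the 2 null arrays of high Cpa1 the medians were 0.62 for B cells and 0.44 for T cells. They were then 0.62 for plasma cells, 0.10 for NK and cytotoxic cells, 0.65 for dendritic cells and -0.12 for neutrophils.

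**Figure D5:**
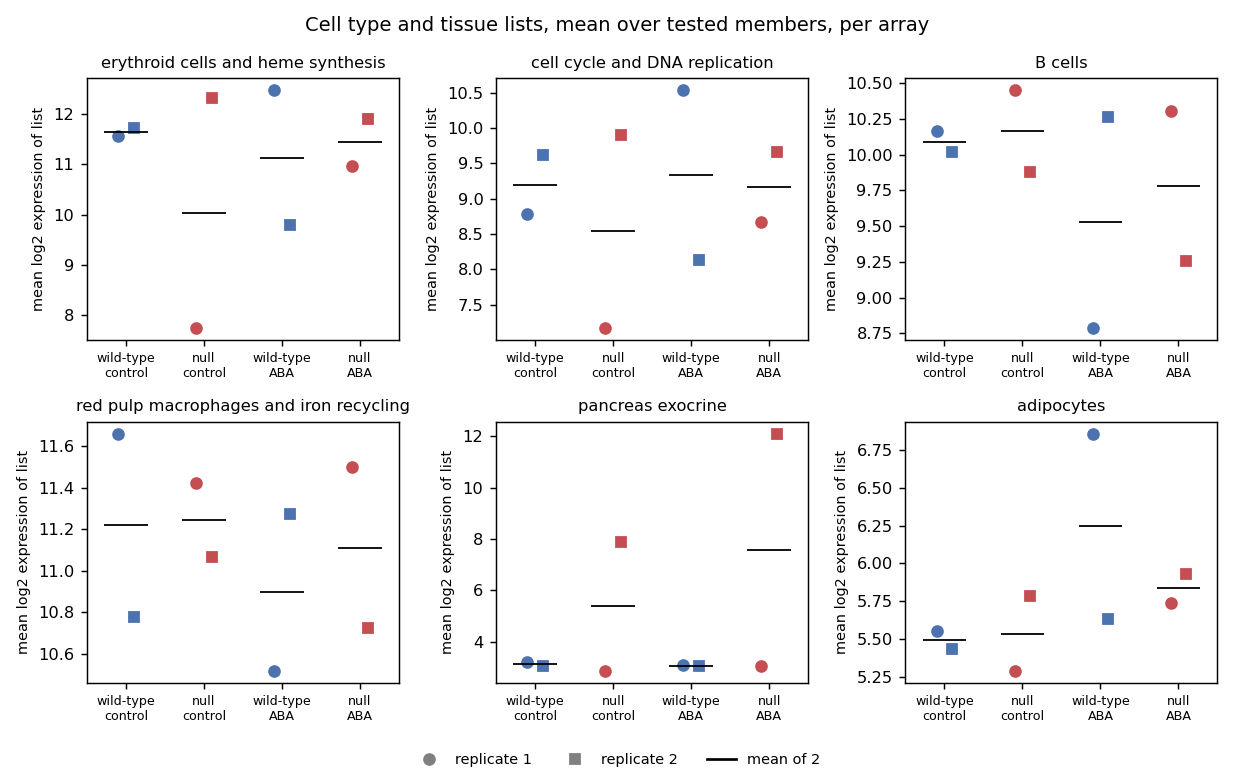
Mean log2 expression over the tested members of 6 gene lists on each array, grouped by genotype and diet; circles are replicate 1, squares replicate 2 and the bar is their mean, and each panel has its own scale. The erythroid and cell cycle panels have the same array lowest, null control diet replicate 1, and the pancreas panel is high on 2 of the 4 null arrays.

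Further programmes of the resting cell stayed within the spread. Of 26 genes of oxidative phosphorylation 21 were higher and 5 lower by small amounts, with a median of 0.09, while quantile normalisation gave 13 of each and median centring 15 and 11. Of 17 immediate-early genes 13 were higher, with a median of 0.27; Fos was at 4.33, 6.51, 4.33 and 6.46 in wild-type and at 7.26, 7.52, 5.72 and 6.24 in null mice, and Egr1 differed by 0.78 ± 0.40. Of 13 glucocorticoid-responsive genes 11 were higher, with a median of 0.24, and of 13 clock genes 10, with a median of 0.25. Both medians were smaller without null control diet replicate 1, at 0.10 and 0.07. Without the 2 null arrays of high Cpa1 they were larger, at 0.52 and 0.64. Of 17 genes of sterol and fatty acid synthesis 7 were higher and 10 lower, with a median of -0.08. Of 7 genes of epithelial cells, the other lineage in which the Cre promoter is active, 2 were higher and 5 lower, with list means of 2.90 and 2.87, close to the lowest value.

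The largest differences between the genotypes were those of pancreas enzymes, which were present on 2 null arrays. All 16 tested pancreas genes were higher in null mice, with a median of 3.35, and 0 passed. The list mean was 3.05 to 3.23 on the wild-type arrays and 2.87, 7.90, 3.05 and 12.10 on the null arrays. Cela2a, an elastase, was at 2.24 on 6 arrays and at 10.66 and 13.90 on the same 2 null arrays as Cpa1. Genes at the lowest value on 6 arrays, such as these 2, passed the filter only through those null arrays, which fixed their direction in advance. The count of 16 higher is therefore a description of those arrays. Without these 2 arrays the median of the list was 0.00. Of the 46 genes more than 1 log2 unit higher in null mice, 21 had both of these arrays above the other 6, beside 140 of all 12941 tested genes. Of the same 46 genes, 16 are in the pancreas list.

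Of the 34 genes more than 1 log2 unit lower, 27 had their lowest value on null control diet replicate 1, the array lowest in erythroid transcripts, beside 1818 of all tested genes. With the erythroid mean as a covariate, 10 of the 34 stayed lower by more than 1. Serpina1b had the largest of these differences, -2.21, at 3.02 on that array and at 9.45 to 11.10 on the other 7. Speg, a muscle kinase, was the lower gene past 1 log2 unit with the next smallest p after H1f7 (unadjusted p = 0.00348, limma), at 5.57, 5.21, 6.83 and 6.47 in wild-type and 2.73, 3.85, 5.57 and 5.57 in null mice. It differed by -1.59 ± 0.33, with the null arrays on the control diet below every other array and those on ABA among the wild-type values. Serpina1b and Speg were chosen after their values were seen. Among the higher genes outside the pancreas, Galc, a lysosomal enzyme of glycolipid breakdown also chosen after seeing its values, was at 2.25, 2.26, 3.18 and 5.03 in wild-type and at 4.97, 3.66, 5.58 and 4.41 in null mice, which overlap.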

How the data were processed

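The authors deposited log2 expression values per probe set and array; per the submitters' processing notes they were made with GCRMA, and limma is also named, with no versions. The deposited log2 values were used as they are. The scale was read from their range. Of 45101 probe sets, 34958 name 1 gene, 932 several and 9211 none in the array annotation; a gene was represented by its single-gene probe set with the highest mean over the 8 arrays. Groups come from the labels, and no pair of arrays was identical (0 pairs).

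Model fits used limma 3.58.1 (R 4.3.3; lmFit and eBayes, terms for diet and genotype, 5 residual and 0.781 prior degrees of freedom), with Benjamini-Hochberg adjustment at 0.05. Single-diet differences and the interaction came from a fit of 4 group means. The main fit was also run on simulated data with independent noise for each gene and array. Those data lack the shared differences between arrays seen here, so the run does not show how the fit behaves on these arrays. Figures used matplotlib 3.10.9 in Python 3.11.15. The number of arrays limits the precision.

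Named genes are Pparg and, as none passed, the 12 higher and 12 lower genes of smallest p without overlap between genotypes, clone names left out; Cpa1, Xist and Lancl2 are checks. The comparison and the 33 gene lists were chosen with earlier results of these data known. Adipoq, Eif2s3y, Uty, H1f7, Serpina1b, Speg, Galc and the list members given as examples were chosen after their values were seen.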

Additional observations from a re-analysis of the deposited data

Results flagged for a closer look

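Within the 4 arrays of each genotype, 1 array stood far from the other 3 in 11 of 122 groups of values (Dixon's test, in which chance gives about 1 in 20). Of these, 5 came from wild-type ABA diet replicate 1. Its B cell list mean was 8.79, beside 10.02 to 10.27 on the other wild-type arrays, its adipocyte list mean 6.86 beside 5.44 to 5.63, and its liver list mean 3.64 beside 2.39 to 2.44. On the same array Adipoq was at 6.64 beside 2.36, and Carmil2 was at 2.77 beside 2.53 to 2.54. Null control diet replicate 1 had Tek at 6.24 beside 4.94 to 5.14, Srrm4 at 2.62 beside 3.12 and Rnd2 at 2.29 beside 2.43. Null control diet replicate 2 had Morn2 at 3.37 beside 3.27, and null ABA diet replicate 2 had Adipoq at 2.49 beside 2.36 to 2.37. Wild-type control diet replicate 2 had Grem1 at 3.64 beside 3.41 to 3.45.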

How the results depend on the processing

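The genotype comparison called 0 genes under 27 of its 29 alternatives, with 54 to 551 genes at an unadjusted p under 0.05. The exceptions were the fit of 16 arrays in 8 groups, with 5 (1 higher, 4 lower), and the average of 4 group means, with 1. H1f7 was that 1 gene and was also among the 4 lower ones. Leaving out each array gave 0 to 0. With a replicate block it gave 0, with 101 at an unadjusted p under 0.05, and on the control diet 0 in place of 1; replicate numbers did not pair the samples (correlations of the replicate differences between groups of -0.70 to 0.51), and the block changed no other call. On the control diet quantile normalisation gave 0, no filter 18 and 16 arrays 12, and leaving out 1 array 0 to 114. On ABA no filter gave 6, 16 arrays 1 and leaving out 1 array 0 to 1; for the interaction no filter gave 11 and leaving out 1 array 0 to 9. The cause of these differences was not tested. Pparg, at 0.09, was -0.18 with array weights, -0.078 with the erythroid mean as a covariate, -0.09 without wild-type ABA diet replicate 1, -0.12 without null control diet replicate 1 and -0.04 without null ABA diet replicate 1; without the arrays with high Cpa1 it was 0.50. The other 24 named genes kept their direction in all 640 alternative values and passed in 0; their choice for not overlapping largely fixes that direction. Without the arrays with high Cpa1, list medians moved to 0.48 for lipid handling, 0.33 for nuclear receptors, 0.47 for the ABA receptor and cAMP, 0.62 for plasma cells, 0.58 for endothelium and stroma, 0.64 for the clock, 1.26 for X-inactivation and Y-linked genes and 0.00 for pancreas; without arrays of high Adipoq too, that of the ABA receptor and cAMP was 0.35. Median centring moved that of epithelial genes to -0.10. Medians are listed here where they moved by at least the list's SD between arrays of a genotype. Without the arrays with high Cpa1, those of other lists also moved, by less than that SD. They were -2.09 for erythroid genes, -1.28 for the cell cycle, 0.62 for B cells, 0.65 for dendritic cells and 0.60 for alternative activation. The erythroid covariate and the omission of arrays with high Cpa1 or Adipoq, or of null control diet replicate 1 for lists, were added after seeing the data. With 4 arrays a genotype, values near 2.24 carry no order, and a gene whose 95% interval reaches past 1 has no bound at a 2-fold difference.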

Other observations

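Some genes took 2 separate levels over the 8 arrays. In 16 tested genes a gap of at least 2 log2 units divided the arrays with 3 to 5 on each side, and in 0 of them did the gap divide the genotypes. Mid1, an X-linked ubiquitin ligase, was at 6.91 and 8.31 on the wild-type control diet arrays and at 7.35 on null control diet replicate 1, and between 2.45 and 3.82 on the other 5. D17H6S56E-5, a transcript of the MHC region, was at 8.14, 6.31 and 6.60 on wild-type control diet replicate 2, wild-type ABA diet replicate 2 and null ABA diet replicate 1, and at 10.30 to 11.38 on the other 5. H2-Eb1, an MHC class II gene, is not 1 of the 16, as its gap was under 2 log2 units. It was lowest on those same 3 arrays, at 10.06, 9.53 and 9.67, beside 11.86 to 13.64 on the rest. Pik3ap1, a B cell signalling adaptor, was at 4.64, 5.12 and 5.60 on wild-type ABA diet replicate 1 and both null ABA diet arrays, and at 9.41 to 11.01 on the other 5. Slc7a2, a transporter of arginine, was at 7.38, 7.39 and 6.94 on the 3 arrays lowest in erythroid transcripts and at 3.01 to 3.99 on the other 5. Atp1b2, Cenpi, Mybl2, Redrum and Slc22a4 divided the arrays in the same way, but were low on those 3.

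Null control diet replicate 1 held the highest value of the 8 arrays in 4111 genes (31.8%), where an equal share is 12.5%.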
